A study of Arabidopsis thaliana with 6 samples.

Results

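Of the 13426 genes that the authors' deposited table lists with a peak of the DELLA protein RGA in their window, 102 were described there as kinases with leucine-rich repeats, and these are the subject here. They are the genes whose short description holds both "leucine-rich" and "kinase", without the CLAVATA1, BAM, RPK2, BRI1, BRL and BAK1 genes, of which 8 are in the table. All 102 are protein-coding. The table lists a gene only where at least 1 RGA-GFP library had a peak, so the presence of a peak chose the members. It is described below with no test, and nothing rests on it.

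A leucine-rich repeat receptor kinase spans the plasma membrane. Its repeats outside the cell bind a peptide, a steroid or another receptor, and its kinase domain inside the cell passes the signal on, often together with a shorter co-receptor. In Arabidopsis these receptors are known for roles in organ growth, stem cell maintenance, vascular and pollen development, abscission and immunity. RGA restrains growth until gibberellin leads to its removal. DELLA proteins have no DNA-binding domain of their own and reach chromatin through transcription factors, so a ChIP-seq peak of RGA places it near a sequence and does not show which gene responds.

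The samples were inflorescence apices of Landsberg-erecta plants, which carry a mutated ERECTA gene, grown in long days until about 10 flowers had matured. The RGA-GFP plants expressed RGAp:GFP-rga-delta17, a GFP-tagged RGA under the RGA promoter that gibberellin does not remove, and the wild type plants had no GFP tag and were processed with the same anti-GFP beads. There were 3 libraries per genotype, labelled as biological replicates, each from 1 to 2 g of apices. The ChIP material held all cell types of the apex, so a peak in few cells and weak occupancy in many cannot be told apart. After duplicates were removed, 14644122 to 16745139 tags were kept in the RGA-GFP libraries and 3999159 to 10014730 in the wild type libraries. The RGA-GFP lists held 9343 to 11116 peaks and the wild type lists 285 to 972.

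The fold of a peak in a single list is the authors' ratio of the tags at its summit to the background of the same library. The fold in the pooled list is their ratio of the combined RGA-GFP tags at the summit to a background from the combined wild type tags. That background is local to the summit and never below a genome-wide level. Folds of single lists and of the pooled list are thus different quantities and are not compared in size. The scaled pileup is the number of tags at a summit per 1000000 kept tags of its library. A gene's window, in the authors' table, runs from 3000 bp upstream to 1500 bp downstream of its coding sequence, and may be cut at a neighbouring gene. A member is said to have a pooled peak where its fold in that table is above 0.

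A pooled peak was present at 73 of the 102 members (71.6%), against 64.3% of all genes in the authors' deposited table. Over all protein-coding genes of the genome 46.1% had a row in the table and 29.7% had a pooled peak. Members' windows were longer, with a median of 5929 bp against 4182.5 bp over the table, and the part of window length in this share was not tested. In the authors' deposited table, 76 members (74.5%) had a peak in all 3 RGA-GFP lists, 10 in 2 lists and 16 in 1 list. The same shares over all genes of the authors' deposited table were 65.3%, 17.0% and 17.7%.

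The pooled folds of the members were of ordinary size for these data. Their median over the 73 was 1.70, with a range of 1.37 to 2.39, beside a median of 1.73 and a range of 1.25 to 3.54 over all genes with a pooled peak. A fold of at least 2 was reached by 12 members (16.4%), against 17.5% of all genes with a pooled peak. The strongest pooled peaks of the members had a median length of 521 bp. Several peaks per window occurred at 27 of the 73 members (37.0%), against 28.3% of all genes with a pooled peak. Members' windows were longer, and the part of window length in this difference was not tested. The 73 windows held 110 distinct pooled peaks, of which 84 (76.4%) were also called in each of the 3 RGA-GFP libraries and 7 in none of them. Over the whole pooled list the shares were 77.4% and 5.09%.

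The strongest pooled peak was found in all 3 RGA-GFP lists at 59 members. At these sites the mean fold over the 3 lists ranged from 1.62 to 4.17 with a median of 2.36, and the SD over the lists was 0.20 at the median. The median fold was 2.40 in RGA-GFP 1, 2.41 in RGA-GFP 2 and 2.15 in RGA-GFP 3. RGA-GFP 3 gave the lowest fold at 50 of the 59 sites, and at 76.3% of all pooled peaks found in the 3 lists, so this library was the lowest at most sites in both. The 3 libraries ranked the 59 sites alike, with Spearman correlations of 0.86 to 0.89 between the pairs of lists, across sites that share a library and its depth.

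The 12 members with the highest pooled fold among those with a peak in all 3 lists were a mixture of known receptors and genes that the tables used here give no name. AT5G43020, an unnamed receptor kinase gene, had the highest pooled fold of all members. Its site at chr5:17256230-17257212 (TAIR10, as all coordinates here), inside the gene, gave folds of 3.79, 2.94 and 3.17 in RGA-GFP 1, 2 and 3 (mean 3.30 ± 0.44 SD, n = 3) and a pooled fold of 2.39. It had no peak in a wild type list, and each RGA-GFP library was above the members' median for that library. At the summit 188, 156 and 179 tags were stacked in the 3 RGA-GFP libraries.

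AT1G05700 had the second highest pooled fold, 2.34, at chr1:1713292-1714583. The RGA-GFP libraries gave folds of 3.98, 3.71 and 2.88 there (mean 3.52 ± 0.57 SD, n = 3). Wild type 1 also had a peak at this site, with a fold of 2.04 over its own background, while wild type 2 and 3 had none. The scaled pileups were 18.8, 17.2 and 12.4 in RGA-GFP 1, 2 and 3 and 6.89 in wild type 1, so all 3 RGA-GFP libraries were above wild type 1. These 2 members and PXC3 were the only members with a pooled fold above 2.2.

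PXC3 (AT2G41820), named as a member of the PXY-correlated kinases, had a pooled fold of 2.31 at chr2:17443642-17444115. The folds there were 3.46, 3.12 and 2.50 in RGA-GFP 1, 2 and 3, with no wild type peak. This site was 2892 bp upstream of the gene and nearer to AT2G41810. A second pooled peak at chr2:17446216-17446689 was 299 bp from PXC3, with a pooled fold of 2.09 and folds of 2.85, 2.57 and 1.95 in the 3 lists, lowest in RGA-GFP 3. Its relatives PXC1 (AT2G36570) and PXC2 (AT5G01890) had pooled folds of 1.40 and 1.76, so the 3 genes spanned most of the range of the members.

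PSY1R (AT1G72300), the receptor-like kinase named for the tyrosine-sulfated peptide PSY1, had a pooled fold of 2.12 at chr1:27224068-27224553. RGA-GFP 1, 2 and 3 gave folds of 2.71, 2.62 and 2.60 (mean 2.65 ± 0.06 SD, n = 3), the smallest spread among the 12, and no wild type library had a peak. The summit lay 3023 bp upstream of PSY1R and outside the authors' window, which only the edge of the peak entered. The gene nearest to the summit was ATL3 (AT1G72310). The unnamed kinase genes AT2G23950 and AT4G23740 had exactly the same pooled fold of 2.12 at sites on chromosomes 2 and 4. At all 3 sites the pooled pileup was 152 tags and the wild type background was 71.1 tags, the genome-wide level that the peak caller uses as its lowest background. With the same pileup over the same background the pooled folds are equal, while the replicate folds were not all equal in any of the 3 lists, with means of 2.65, 2.66 and 2.64.

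ERECTA (AT2G26330), the receptor kinase that promotes organ growth and sets inflorescence architecture and stomatal spacing, had a single pooled peak, inside the gene, at chr2:11213985-11214617. RGA-GFP 1, 2 and 3 gave folds of 3.89, 4.12 and 2.94 (mean 3.65 ± 0.63 SD, n = 3). None of the wild type lists had a peak there. RGA-GFP 3 was the lowest, and all 3 values were above the members' median of that library. The summit pileups were 193, 219 and 166 tags. The pooled fold was 2.01, over a wild type background of 96.0 tags, which was above the genome-wide level. Both other genes of the family, ERL1 and ERL2, are in the authors' deposited table with pooled folds of 2.03 and 2.23 but are described there in other words and are not members. ERL1 and ERL2 each had a peak of 1 wild type list in the window.

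The other members of the 12 were AT1G12460, AT4G22730, MEE62, AT2G42290 and AT5G51560, with pooled folds of 2.01 to 2.18. MEE62 (AT5G45800), named for an embryo arrest mutant, had 4 pooled peaks in its window, the longest of them 1500 bp and inside the gene. Its strongest site by pooled fold (2.06) gave 2.23, 2.12 and 2.44 in the 3 lists, while a second site in the gene with a pooled fold of 2.04 gave 3.59, 3.20 and 2.83, so the pooled list and the single lists ordered these peaks differently. AT2G42290 also had 4 pooled peaks, and its strongest (2.04) appeared in RGA-GFP 1 and 2 with folds of 2.58 and 1.96 but not in RGA-GFP 3. Its second pooled peak by fold (1.97) appeared in all 3 lists with folds of 2.48, 2.32 and 2.10. AT5G51560 gave 3.55, 3.34 and 3.17 at a site 2322 bp upstream of the gene.

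**Figure D1:**
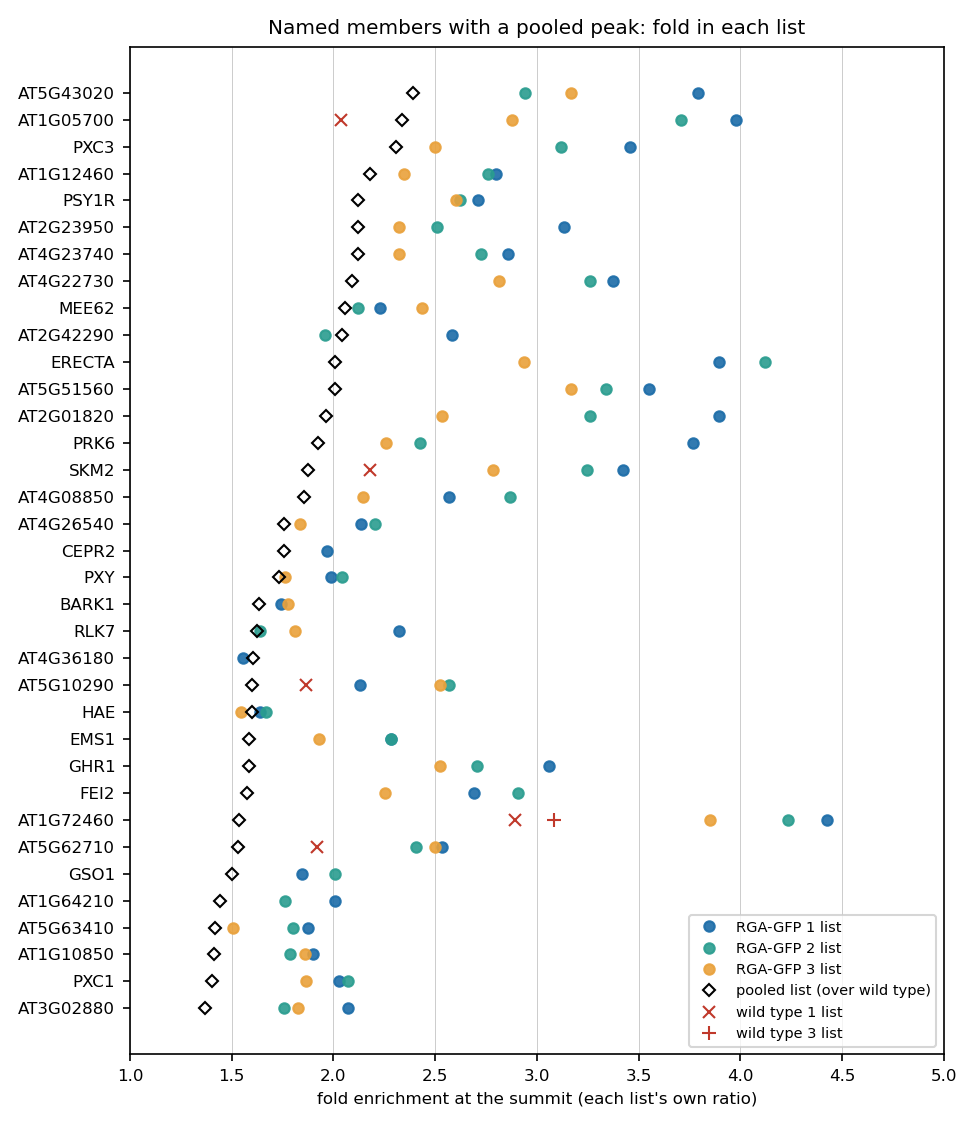
Fold enrichment (horizontal axis) at the strongest pooled peak of the named members with a pooled peak, 1 row per gene. Filled circles are the 3 RGA-GFP lists and crosses the wild type lists, each over its own library, and open diamonds are the pooled list over wild type; AT1G72460 has the highest single-list folds (3.85 to 4.43) and, at 1.54, a pooled fold below the members' median.

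Among receptors of peptides, pooled peaks were present at the 3 named members PSY1R, CEPR2 and RLK7. Members or not, 6 of the 8 listed peptide receptors that the gene table names had one, against 29.7% of all protein-coding genes. The list was chosen with results of these data known, so this share is only a description. Wild type peaks were in the window of PEPR1 in 3 wild type lists, of CEPR2 in 2 and of RLK7 in 1. Of the members on the peptide receptor list without a matching name, SKM2 and AT4G26540 had a pooled peak and AT5G48940 had none. AT3G24240 and AT1G34110, also listed without a matching name, had no row in the authors' deposited table. CEPR2 (AT1G72180), a receptor of CEP peptides, had 2 pooled peaks. The peak with the higher pooled fold (1.76, chr1:27161685-27162109) was found only in RGA-GFP 1, with a fold of 1.97. The other (1.67, chr1:27159873-27160451) gave 4.50, 4.30 and 3.62 in the 3 RGA-GFP lists, and it overlapped peaks of wild type 1 and wild type 3 with folds of 2.62 and 2.98. RLK7 (AT1G09970), another receptor-like kinase, had folds of 2.32, 1.64 and 1.81 at a site inside the gene (pooled 1.62). RGA-GFP 1 was the highest, and no wild type peak overlapped the site, although wild type 3 had a peak elsewhere in the window.

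SKM1 (AT2G25790) and SKM2 (AT5G56040), receptor kinases of pollen tube growth, had pooled folds of 1.64 and 1.88. The SKM1 site appeared in RGA-GFP 2 and 3 with folds of 1.89 and 1.88, and not in RGA-GFP 1. Its summit lay 1383 bp downstream of SKM1 and 120 bp from AT2G25800. The SKM2 site gave 3.42, 3.25 and 2.78 in the 3 RGA-GFP lists and overlapped a wild type 1 peak with a fold of 2.18. Its summit lay outside the window, 3140 bp upstream of the gene and nearer to HSP81-2, and only the edge of the pooled peak entered the window. PRK6 (AT5G20690), a pollen receptor kinase that perceives attractant peptides of the ovule, had folds of 3.77, 2.42 and 2.26 (mean 2.82 ± 0.83 SD, n = 3), the largest spread of the 59 sites, and a pooled fold of 1.92. RGA-GFP 1 stood apart from RGA-GFP 2 and 3 at this site. The summit was 672 bp from PRK6 and nearer, at 220 bp, to AT5G20700. PRK6 was the 1 pollen receptor kinase of the 6 listed and named that was in the authors' deposited table. AT5G45840, also listed but without a matching name, had no row there.

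PXY (AT5G61480), the receptor of the peptide TDIF that maintains vascular stem cells, had 2 pooled peaks of nearly the same size. The site inside the gene at chr5:24724867-24725296 gave 1.99, 2.04 and 1.76 in the 3 RGA-GFP lists (pooled 1.73), and the site 209 bp outside the gene at chr5:24728254-24728675 gave 1.91, 1.98 and 2.01 (pooled 1.73). No wild type list had a peak at either site, and the values of both sites overlapped. PXL2 (AT4G28650), its close relative, had no pooled peak and was found in RGA-GFP 1 and 2 with folds of 1.99 and 1.65. The authors' window of PXL2 was 986 bp long, so most of a usual window was not searched.

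HAE (AT4G28490), the receptor of the peptide IDA in floral organ abscission, had 3 pooled peaks with folds of 1.55, 1.31 and 1.60. That with the highest pooled fold gave 1.64, 1.67 and 1.55 in the 3 RGA-GFP lists (mean 1.62 ± 0.06 SD, n = 3), the lowest mean of the 59 sites. The pooled peak 403 bp outside the gene gave 2.60, 2.51 and 2.15 in the 3 lists, and no wild type list had a peak at any of them. All 3 listed HAESA genes had a pooled peak, against 29.7% of all protein-coding genes, and only HAE of them is a member. The HAESA list was chosen with results of these data known, and HSL1 had a peak of 1 wild type list in its window. EMS1 (AT5G07280), the receptor that specifies the tapetum of the anther, gave 2.28, 2.28 and 1.93 at a site 151 bp from the gene (pooled 1.59), with RGA-GFP 3 the lowest. GSO1 (AT4G20140), which acts in the embryonic cuticle and the root barrier, was found in RGA-GFP 1 and 2 with folds of 1.85 and 2.01 (pooled 1.50), and its partner GSO2 (AT5G44700) had no pooled peak and folds of 1.56 and 1.71 in RGA-GFP 2 and 3.

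GHR1 (AT4G20940), a receptor kinase of guard cell signalling, had 2 pooled peaks with folds of 1.59 and 1.58. A single peak in each RGA-GFP list covered both, with folds of 3.06, 2.71 and 2.52, and none was present in wild type. The stronger site was nearer to AT4G20930. FEI2 (AT2G35620), a kinase of cell wall synthesis, gave 2.69, 2.91 and 2.25 inside the gene (pooled 1.58). BARK1 (AT3G23750), named for its interaction with BAK1, had 2 pooled peaks inside the gene with folds of 1.64 and 1.51. The weaker was in all 3 lists and the stronger was absent from RGA-GFP 2. Without names in the tables used here, AT2G01820, AT4G08850 and AT4G26540 had pooled folds of 1.97, 1.86 and 1.76 and a peak in all 3 lists. Another gene was nearer to the summit at AT4G08850 and AT4G26540.

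Of the members on the list of immune genes, FLS2, BIR2, IOS1 and AT1G27190 had no pooled peak, and AT4G08850 had one with a fold of 1.86. FLS2 (AT5G46330), the flagellin receptor, gave 3.37, 2.999 and 2.60 in RGA-GFP 1, 2 and 3 (mean 2.99 ± 0.38 SD, n = 3) at chr5:18791328-18792675. Wild type 1 and wild type 3 had peaks overlapping that stretch with folds of 1.97 and 2.71, so the RGA-GFP 3 value was below the wild type 3 value, although each is relative to its own library. The wild type 1 peak lay at chr5:18792446-18792899, away from the RGA-GFP 1 summit at 18791538. The wild type 3 peak, at chr5:18791326-18791677, covered that summit. Scaled pileups were 11.4, 10.1 and 8.78 in RGA-GFP 1, 2 and 3, and 11.0 in wild type 3 lay within their range. The separate wild type 1 peak had 6.89. BIR2 (AT3G28450), a regulator of BAK1, was found in RGA-GFP 1 and 2 with folds of 1.75 and 1.91. IOS1 (AT1G51800), which acts in responses to pathogens, shared a single RGA-GFP 1 peak of fold 2.39 with its neighbour AT1G51790. Of the 10 listed and named immune genes, members or not, 7 were in the authors' deposited table and 3 (30.0%) had a pooled peak, against 29.7% of all protein-coding genes.

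Over all 11 lists of receptor families, 63 genes had a name in the gene table used here. Of these 63, 42 had a row in the authors' deposited table and 30 (47.6%) had a pooled peak, against 29.7% of all protein-coding genes. Of the 30, 11 were members and 19 were not, since the members are defined by the words of a description. The lists were chosen with results of these data known, and these shares are descriptions. Of the 9 listed STRUBBELIG genes 2 had a pooled peak, and of the 4 listed SERK co-receptor genes none had, with SERK4 in 1 RGA-GFP list.

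By the wording of the descriptions, 70 members were called protein kinase family proteins, 17 receptor-like kinases and 15 transmembrane kinases. A pooled peak was present at 48, 15 and 10 of them. The median pooled folds were 1.72, 1.76 and 1.62, and the 3 ranges overlapped. Members lay on all 5 chromosomes, with 31 on chromosome 1, 17 on chromosome 2, 9 on chromosome 3, 15 on chromosome 4 and 30 on chromosome 5. Chromosomes 1 to 5 held 30.4%, 16.7%, 8.82%, 14.7% and 29.4% of the members. They held 26.9%, 14.8%, 20.4%, 15.1% and 22.7% of all genes in the authors' deposited table. The genes left out by the rule, among them BAM2, RPK2 and BRL3 on chromosome 3, are not in the members' shares.

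In the combined wild type, 18 of the 73 strongest sites (24.7%) had a background at the genome-wide level of 71.1 tags, and 31.8% of all pooled peaks did. The other 55 sites had a higher wild type background, up to 181 tags. AT2G26730 had replicate folds of 4.14, 3.99 and 3.47 (mean 3.87 ± 0.35 SD, n = 3), above those of AT5G43020 in all 3 libraries, but a pooled fold of 1.70, with a wild type background of 112 tags against 74.0. No wild type list had a peak at AT2G26730. Over the 59 sites the mean replicate fold and the pooled fold had a Spearman correlation of 0.62, across sites of the same libraries whose RGA-GFP tags enter both values.

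**Figure D2:**
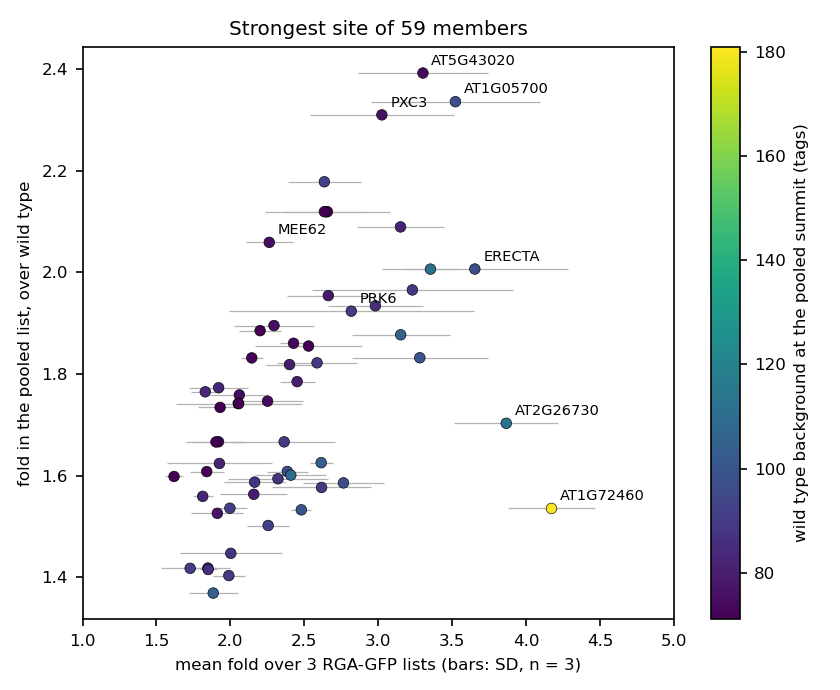
Mean fold over the 3 RGA-GFP lists (horizontal, bars are the SD over 3 libraries) against the pooled fold over wild type (vertical) for the 59 members whose strongest pooled peak is in all 3 lists, coloured by the wild type background at the summit in tags. AT2G26730 and AT1G72460 lie far to the right at pooled folds of 1.70 and 1.54, with wild type backgrounds of 112 and 181 tags.

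A wild type peak overlapped the window of 10 members by at least 50 bp (9.80%), against 8.29% of all genes in the authors' deposited table. Among the 73 members with a pooled peak 8 (11.0%) had one, against 9.87% of all genes with a pooled peak. Wild type 1 had a peak at 9 members, wild type 3 at 5 and wild type 2 at none. Over the table these libraries had peaks at 7.11%, 3.27% and 1.02% of genes. Wild type 3 kept the fewest tags, and the wild type lists were called with no control library.

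At 5 members the wild type peak overlapped the strongest pooled peak itself, namely AT1G05700, SKM2, AT5G10290, AT1G72460 and AT5G62710. SKM2 is not among the 10, since the wild type peak at its site does not reach 50 bp into its window. The pooled peak of SKM2 does not reach 50 bp into that window either, but pooled peaks were counted from an overlap of 1 bp. At AT1G72460 the site chr1:27276674-27277077 gave 4.43, 4.23 and 3.85 in RGA-GFP 1, 2 and 3 (mean 4.17 ± 0.29 SD, n = 3), the highest mean of the 59 sites, and 2.90 and 3.08 in wild type 1 and 3. The scaled pileups were 24.7, 22.5 and 18.9 in RGA-GFP 1, 2 and 3 and 13.2 and 15.0 in wild type 1 and 3, so the groups did not overlap where a peak was called. The pooled fold was 1.54, and the nearest gene was JAZ6 (AT1G72450), a repressor of jasmonate responses. AT5G10290 gave 2.13, 2.57 and 2.52 against 1.86 in wild type 1, and AT5G62710 gave 2.53, 2.40 and 2.50 against 1.92 in wild type 1. Both had pooled folds below the members' median, 1.60 and 1.53.

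At CEPR2 and AT4G36180 a wild type peak overlapped another pooled peak of the window. At AT4G36180 that peak (pooled 1.39) gave 3.14, 3.28 and 2.85 in the RGA-GFP lists and 2.09 and 3.21 in wild type 1 and 3, so the groups overlapped. The peak of AT4G36180 with the higher pooled fold, 1.61, was inside the gene and was found only in RGA-GFP 1, with a fold of 1.56. In both windows the pooled fold and the single-list folds thus picked different peaks.

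The 7 pooled peaks that overlapped no peak of a single RGA-GFP list belonged to AT2G42290, AT4G34220, AT4G37250 and AT5G67200, which each had 3 or 4 pooled peaks, and 6 of the 7 were inside the gene. Their pooled folds were 1.51 to 1.67, over wild type backgrounds of 71.1 to 75.0 tags. AT4G34220 had its highest pooled fold (1.80) at a site found only in RGA-GFP 1, and AT5G67200 (1.80) at a site found only in RGA-GFP 3.

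The summit of the strongest pooled peak was inside the gene at 27 of the 73 members (37.0%), against 31.3% of protein-coding genes with a pooled peak. It was upstream at 19 members, at a median of 1761 bp, and downstream at 6. For the other 21 the direction of the gene could not be read from the window, and the summit was 32 to 1527 bp away. Windows reach 3000 bp upstream but 1500 bp downstream, and a side was read only where a single flank was over 1600 bp. The counts by side thus do not show a preferred side, and no share over all genes was computed for them. The member itself was the protein-coding gene nearest to the summit in 44 cases (60.3%), against 63.1% over all such genes. In the other 29 cases another gene was nearer. The strongest peak also lay in the window of another gene in the authors' deposited table at 48 members (65.8%), against 73.9%.

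**Figure D3:**
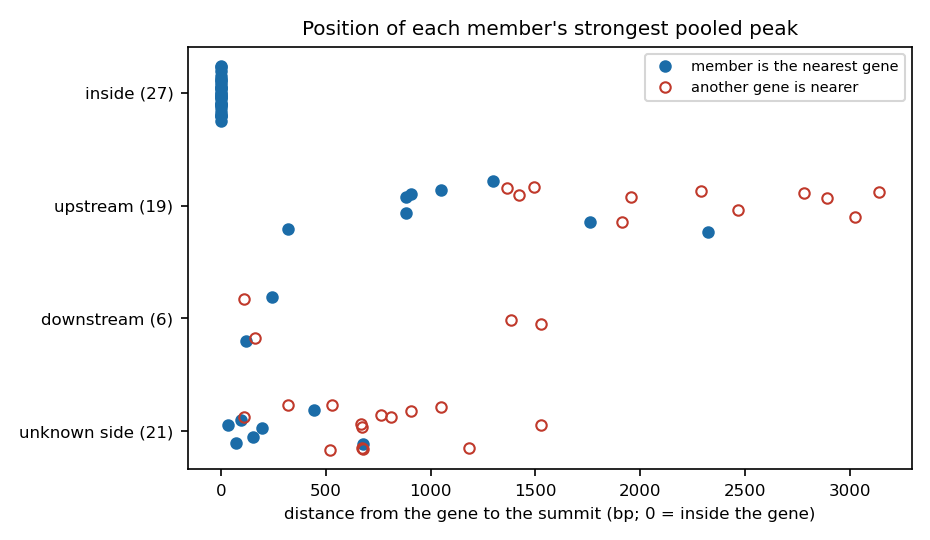
Distance in bp from the gene to the summit of the strongest pooled peak (horizontal; 0 is inside the gene) for the 73 members, in 4 rows by the side of the gene; vertical scatter within a row has no meaning. Filled points are members that are the nearest gene to the summit and open points those where another gene is nearer; all 27 summits inside a gene are filled, and no filled point lies beyond 2322 bp.

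PXC3 and PSY1R were among the members with a nearer neighbour. The peak of AT1G56145 (pooled 1.83) lay 2780 bp upstream of it and 436 bp from AT1G56150. That of AT4G34220 was 249 bp from CAD5, that of AT5G62710 was 124 bp from the tubulin gene TUB3, and that of AT1G14390 was 66 bp from IQD28. At AT2G01210, AT3G08680, AT4G39270, AT5G58150, AT5G63930 and AT1G67720 the summit lay inside the neighbouring gene. AT1G56140 and AT1G56145, neighbouring members, shared a pooled peak at chr1:21007665-21008185 with folds of 2.47, 2.51 and 2.22 in the 3 RGA-GFP lists and a pooled fold of 1.82. It was the only strongest peak that also lay in the window of another member.

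No pooled peak was listed for 29 members. Of these, 10 had a peak in all 3 RGA-GFP lists in the authors' deposited table, which is 13.2% of the 76 such members, against 14.4% of all such genes. A further 4 had peaks in 2 lists and 15 in 1. A wild type peak was in the window of 2 of the 29 (6.90%), against 5.44% of all genes in the authors' deposited table without a pooled peak. AT2G27060 had the highest folds of them, 4.04, 3.32 and 2.99, and wild type 1 had a peak in the same stretch with a fold of 2.38, below all 3 RGA-GFP values. FEI1 (AT1G31420), the partner of FEI2 in cell wall synthesis, gave 2.83, 3.13 and 2.60 (mean 2.86 ± 0.26 SD, n = 3) with no wild type peak. FEI1 and FEI2 thus had similar folds in the single lists, and only FEI2 had a pooled peak. SIRK1 (AT5G10020) gave 2.09, 2.14 and 2.08, and the neighbours AT1G51805 and AT1G51810 shared a site with folds of 2.73, 2.25 and 2.11.

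**Figure D4:**
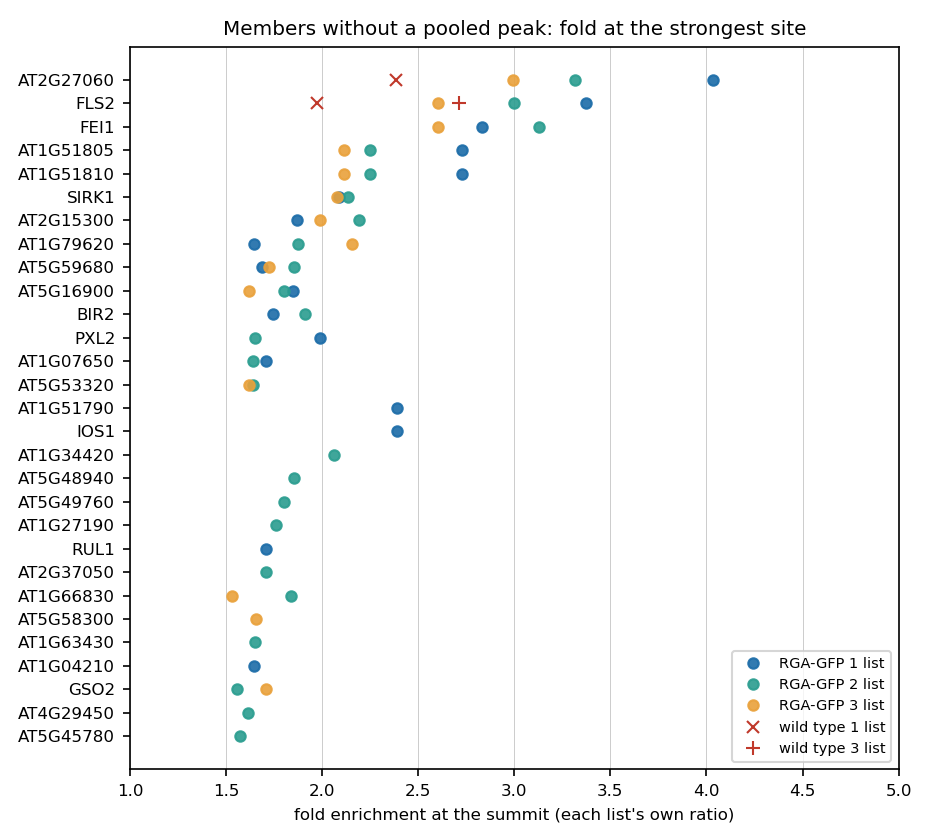
Fold enrichment (horizontal axis) at the strongest RGA-GFP site of the 29 members without a pooled peak, 1 row per gene, with circles for the 3 RGA-GFP lists and red crosses for wild type 1 and 3. Only AT2G27060 and FLS2 carry a wild type peak, and the members found in 1 list (lower rows) lie between 1.53 and 2.39.

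The 15 members without a pooled peak that the authors' deposited table gives 1 RGA-GFP list had highest folds of 1.57 to 2.39 with a median of 1.71. They included RUL1 (AT5G05160), a receptor-like kinase of lateral growth, with 1.71 in RGA-GFP 1, and AT5G48940, AT5G49760 and AT1G27190, each found only in RGA-GFP 2 with 1.86, 1.80 and 1.76. A value from 1 library has no replicate check. At GSO2 and AT1G66830 a second RGA-GFP list had a peak at the same site below the −log10 q minimum of 3.

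At the lower end of the members with a pooled peak stood AT3G02880, PXC1, AT1G10850 and AT5G63410, with pooled folds of 1.37, 1.40, 1.42 and 1.42. All 4 had a peak in all 3 RGA-GFP lists, and PXC1 gave 2.03, 2.07 and 1.87. By significance the member nearest to the limit was AT1G64210, with a pooled −log10 q of 2.31, and all members without a pooled peak are listed at 0, so none can be placed just outside. The lowest pooled fold above 0 was thus 1.37 among the members, and 1.25 among all genes with a pooled peak.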

How the data were processed

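Samples were grouped by their titles. Per the submitters' processing notes, Bowtie2, SAMtools and MACS2 2.0.10 were used on TAIR10, the Columbia genome, while the plants were Landsberg-erecta. Per the file headers, tags were extended to 300 bp, 1 tag was kept per position and the q cutoff was 0.05. Pileup is a signal made by the authors, a number of tags. Fold is the authors' ratio of pileup to background, and significance is the authors' −log10 q. In the pooled list the larger library set was scaled to the smaller, per the file headers. Wild type background was computed here as (pileup + 1) / fold − 1.

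Windows were overlapped with peaks at 1 bp or more (wild type peaks 50 bp or more). This gave the pooled fold of the authors' deposited table, to within 0.0001, for 99.4% of genes and all 102 members, and its number of replicate lists for 97.0% of genes and 101 members. Replicate peaks needed a −log10 q of 3, per the file headers. Window edges met a RefSeq gene edge (TAIR10.1) in 25.9% of cases, and in 0.13% after a shift of 500 bp. RefSeq gave names, neighbours and distances, and all 102 members matched. A side was called upstream where it alone had a flank of over 1600 bp.

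Named were the 12 members of highest pooled fold with a peak in all 3 RGA-GFP lists, members of the 11 family lists, members with a wild type peak at a pooled peak of the window, the 4 with the lowest pooled fold and the 1 with the lowest −log10 q, 45 genes in all. Other genes were chosen after their values were seen. The members and lists were chosen with earlier results of these data known. Of 75 listed genes, 12 had no matching name in RefSeq and were left out of family counts. All values are descriptions.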

Additional observations from a re-analysis of the deposited data

How the results depend on the processing

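Of 22 alternative settings over 7 results, 19 kept the value within 1.5 times or within the spread between replicates. Some of the 19 could not differ: the 1 bp overlap was already the rule used, and a wider description that also took LRR added 0 genes. For the median pooled fold the spread was the mean SD of the single-list folds, which are a different quantity. Asking for a pooled −log10 q of at least 10 left 19 of the 73 members with a pooled peak. Requiring a pooled summit inside the window left 68, without PSY1R and SKM2 among others. The 10 members with a wild type peak became 6 where that peak had to overlap a pooled peak of the window, which leaves out SKM2, whose wild type peak does not reach 50 bp into the window. Without 1 wild type library they numbered 5 to 10, the lowest without wild type 1. The pooled list was not remade without a library. With 1 RGA-GFP list set aside, 67 to 68 members had a pooled peak that overlapped a peak of each remaining list. Members with a peak in every remaining list then numbered 77 to 82. Taking any pooled peak of the window, an alternative chosen after seeing the data, the member was nearest in 49 cases in place of 44, and the summit inside the gene in 31 in place of 27.

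No paired analysis was possible because the results come from no test. Promoter motifs and the share of all leucine-rich repeat kinase genes with a row were not analysed here. The wild type libraries were shallower, and a wild type peak that was not called at that depth is not shown to be absent.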
